A study of Homo sapiens with 16 samples.

Results

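IRAK1, IRAK2, IRAK4, MYD88, TIFA, TOLLIP, IL1RAP, SIGIRR, PELI1 and RIPK2 encode proteins that carry or restrain signals from the interleukin-1 (IL-1) receptor family and from bacterial sensors to NF-kB. The 10 genes were chosen by symbol from a table of 28502 symbols, with earlier results of these data known. All 10 were listed in every library, and 9, those averaging 1 FPKM or more, were tested among 11845 loci. FPKM is the fragment count scaled by transcript length and library size, so levels can be set beside each other between genes. The cells were HCT116, a human line from a colorectal carcinoma, transfected with small interfering RNA against EZH1 (siEZH1, a histone H3 lysine 27 methyltransferase gene), against UXT (siUXT, a prefoldin-like gene) or with the preparation labelled NC. Each transfection was treated with tumour necrosis factor (TNF) or with PBS. The 6 conditions had 1 library each, and no source used here gives the siRNA sequences or the dose and duration of TNF. Another 10 samples, of chromatin, were not analysed here.

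An IL-1 receptor pairs with the co-receptor chain IL1RAP, and the cytoplasmic domains of the pair recruit the adaptor MYD88. MYD88 assembles the kinases IRAK4, IRAK1 and IRAK2 by their death domains, and IRAK1 and IRAK2 then bind the ubiquitin ligase TRAF6, which activates the kinase TAK1 and NF-kB. TIFA reaches TRAF6 by another route, from the kinase ALPK1, which senses bacterial heptose sugars. RIPK2 relays signals of the peptidoglycan sensors NOD1 and NOD2 to the same downstream kinases. TNF itself signals from a different receptor complex.

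The siUXT PBS library stood apart: 19.8% of loci were at least 1.5-fold lower in it than in NC PBS, while 5.18% of loci were that much lower in siUXT TNF than in NC TNF. UXT was at 24.6 and 27.7 FPKM in siUXT TNF and siUXT PBS, against 59.6 and 62.2 in NC TNF and NC PBS. EZH1 differed less, at 4.14 and 4.05 FPKM in siEZH1 TNF and siEZH1 PBS, against 5.12 and 5.45 in NC TNF and NC PBS. Of 8 colon epithelial markers, KRT8, KRT18, KRT19, EPCAM, CDH1 and CDX2 were present in every library, while VIL1 and LGALS4 were at or below 0.147 FPKM. Of 10 markers of blood, vessel, muscle and connective tissue cells, PTPRC and CD3E were listed at 0 throughout, and COL1A1 had the highest mean, 6.96 FPKM. The values of KRT19 are shared with JUP, and those of COL1A1 with the transcript HV555657. In bulk RNA, fewer expressing cells and less RNA per cell cannot be told apart.

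The genes covered a wide range of levels. IRAK1 averaged 40.8 ± 10.6 FPKM (SD over the 6 libraries), TIFA 30.8 ± 17.4 and SIGIRR 18.0 ± 4.16. MYD88 was at 14.7 ± 2.12, RIPK2 at 11.2 ± 4.34, IRAK2 at 8.41 ± 7.41 and TOLLIP at 8.2 ± 1.37 FPKM. IRAK4 and PELI1 were low, at 2.64 ± 0.257 and 2.55 ± 0.855, and IL1RAP was the lowest at 0.769 ± 0.206. Neighbours in this order overlapped in range over the 6 libraries, except that TOLLIP stayed above IRAK4 and PELI1 above IL1RAP. IRAK1 and MYD88 RNA was well above that of the co-receptor chain in every library.

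**Figure D1:**
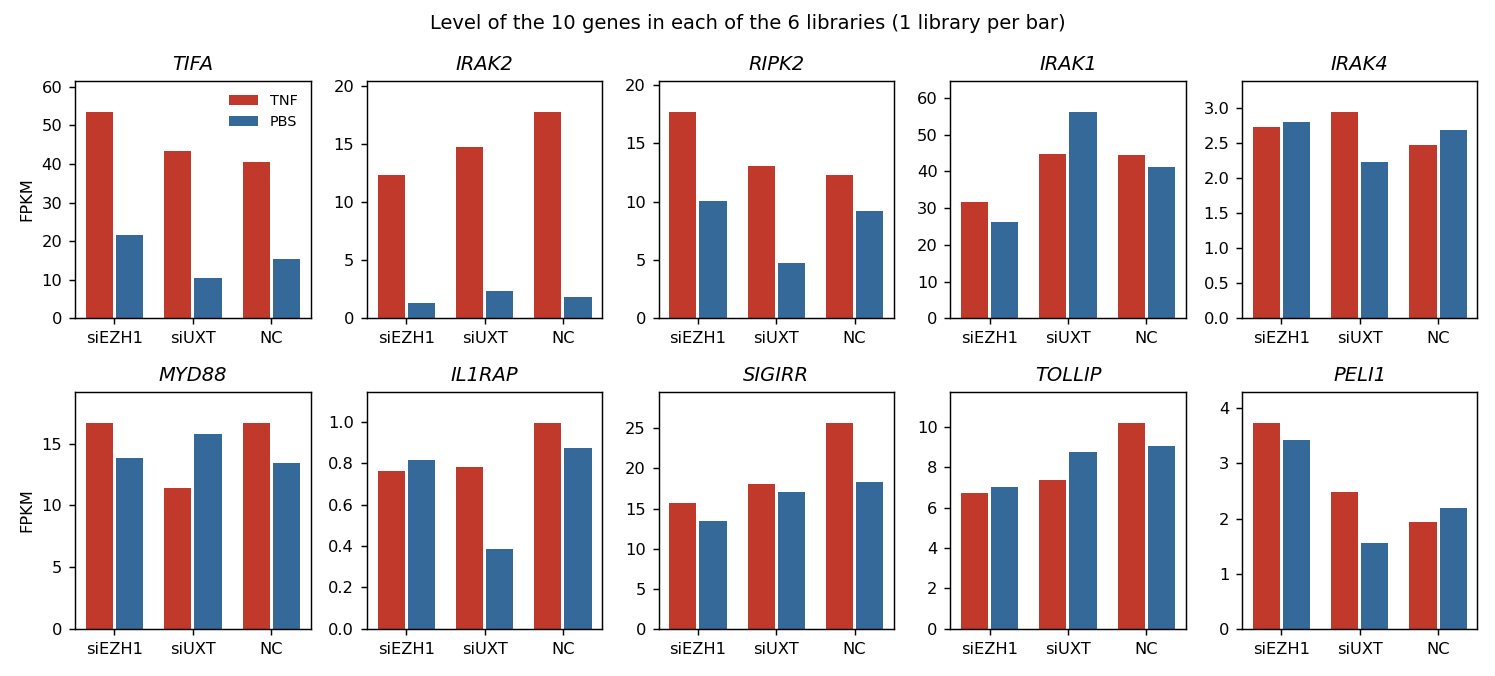
FPKM of each of the 10 genes (y axis, its own scale per gene, from 0) in the siEZH1, siUXT and NC transfections, with TNF in red and PBS in blue and 1 library per bar. The TNF bars of TIFA, IRAK2 and RIPK2 all stand above every PBS bar of the same gene, while the bars of the other 7 genes overlap between treatments.

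TNF raised 2 of the 9 tested genes, IRAK2 and TIFA, and lowered none. IRAK2 encodes the IRAK family member that sustains TRAF6 activation. Its level was 12.4 FPKM in siEZH1 TNF against 1.3 in siEZH1 PBS, 14.8 in siUXT TNF against 2.34 in siUXT PBS, and 17.8 in NC TNF against 1.86 in NC PBS. All 3 TNF libraries lay far above all 3 PBS libraries, and the ratio was 9.53 in siEZH1, 6.32 in siUXT and 9.55 in NC. On the log2(FPKM + 1) scale, which understates the change of low genes, IRAK2 rose by 2.50 ± 0.24 (SD, n = 3 transfections; limma, Benjamini-Hochberg adjusted p = 0.0029).

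TIFA, the forkhead-associated domain adaptor that multimerizes and binds TRAF6, rose less but reached a higher level. It was at 53.5 FPKM in siEZH1 TNF against 21.5 in siEZH1 PBS, at 43.3 in siUXT TNF against 10.5 in siUXT PBS, and at 40.5 in NC TNF against 15.3 in NC PBS. The groups did not overlap, and siUXT, whose PBS library held the lowest TIFA value, had the largest ratio, 4.13, against 2.49 in siEZH1 and 2.64 in NC. Its log2 change was 1.52 ± 0.37 (SD, n = 3 transfections; limma, Benjamini-Hochberg adjusted p = 0.033). The TIFA call was lost with size factors (limma, Benjamini-Hochberg adjusted p = 0.051; 0.372% of loci called higher) and with no filter on low values (adjusted p = 0.15; 0.13% called higher). It held without the siUXT PBS library, with a log2 change of 1.31 (limma, Benjamini-Hochberg adjusted p = 5.7e-04).

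The 2 called genes stood against 48 of 11845 loci called higher, a background of 0.405%, and 0 of 9 against 0.00844% called lower. Because the genes were chosen with earlier results of these data known, these shares describe them and do not test an excess. IRAK2 and TIFA were also the only tested members at least 1.5-fold higher in all 3 pairs, where the background was 1.23%. In the pairs taken singly, 5.14% of loci were at least 1.5-fold higher under TNF in siEZH1 and 5.13% in NC, but 20.6% in siUXT. The part of the siUXT PBS library in the larger TIFA and RIPK2 ratios of siUXT was not tested.

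RIPK2, the kinase that relays NOD1 and NOD2 signals, had the next largest difference and did not pass the test. It was at 17.7 FPKM in siEZH1 TNF against 10.1 in siEZH1 PBS, at 13.1 in siUXT TNF against 4.74 in siUXT PBS, and at 12.3 in NC TNF against 9.19 in NC PBS. Every TNF value exceeded every PBS value, which was so for 3 of 9 tested members and for 3.47% of loci. The 3 ratios of 1.76, 2.77 and 1.34 spread widely, and the mean log2 change was 0.81 ± 0.46 (SD, n = 3 transfections; limma, Benjamini-Hochberg adjusted p = 0.50). Without the siUXT PBS library the change was 0.57 (limma, Benjamini-Hochberg adjusted p = 0.067).

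**Figure D2:**
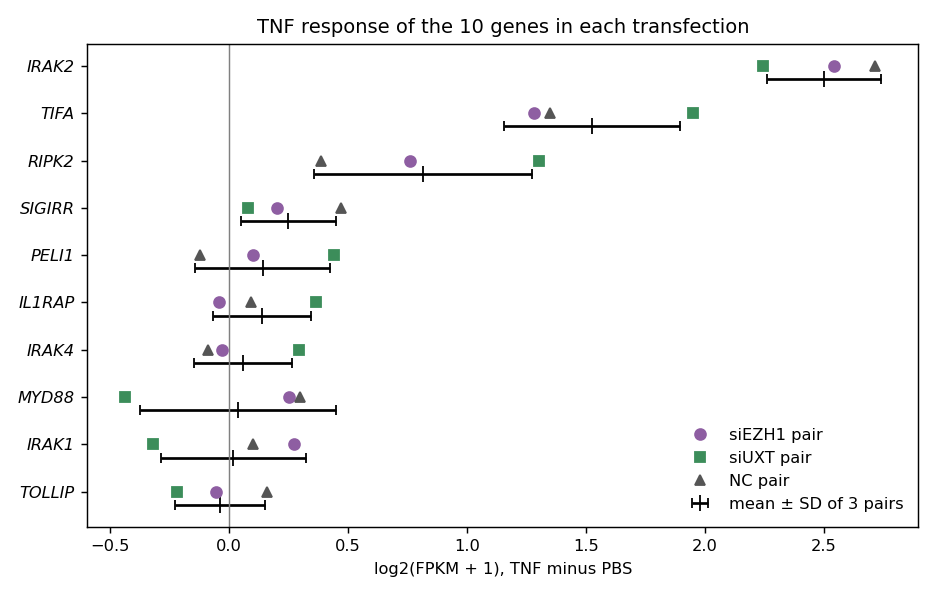
Difference of log2(FPKM + 1) between the TNF and the PBS library (x axis) for each gene, with 1 symbol per transfection and the mean ± SD of the 3 pairs below them in black. IRAK2 at 2.50 and TIFA at 1.52 lie apart from the genes near 0, and the siUXT pair is the highest of the 3 for TIFA and RIPK2 and the lowest for IRAK2 and MYD88.

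The receptor-proximal genes showed no call. MYD88, the adaptor, had 16.7 FPKM in siEZH1 TNF against 13.8 in siEZH1 PBS, and NC TNF had 16.7 against 13.4 in NC PBS, while siUXT TNF had 11.4 and siUXT PBS 15.8. Its direction thus differed between transfections, with log2 differences of 0.25 in siEZH1, -0.44 in siUXT and 0.30 in NC, a contrast with no test at 1 library per condition. IRAK1, the kinase that is modified and degraded once the receptor complex forms, had log2 changes between -0.32 (siUXT) and 0.27 (siEZH1). IRAK4, the kinase that phosphorylates IRAK1, lay between 2.22 and 2.94 FPKM in all 6 libraries, with changes between -0.09 and 0.29. IL1RAP, which was below the limit for testing, was at 0.762, 0.783 and 0.996 FPKM in siEZH1, siUXT and NC under TNF and at 0.814, 0.386 and 0.873 FPKM under PBS.

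SIGIRR and TOLLIP, which restrain the pathway, and PELI1 were not called either. SIGIRR, an IL-1 receptor family member that dampens signalling, was at 15.7 FPKM in siEZH1 TNF against 13.5 in siEZH1 PBS, at 18.0 in siUXT TNF against 17.0 in siUXT PBS, and at 25.7 in NC TNF against 18.3 in NC PBS. All 3 pairs were higher under TNF, as in 9.08% of loci, with a mean log2 change of 0.25 ± 0.20 (SD, n = 3 transfections) and overlapping groups. TOLLIP, an endosomal adaptor that binds the receptor complex, had log2 differences between -0.22 and 0.16. PELI1, a ubiquitin ligase of the Pellino family that modifies IRAK1, had differences between -0.12 and 0.44, and its values are shared with the transcript AK026714. For the 6 tested genes among these the limma Benjamini-Hochberg adjusted p was 1.0. Over the 9 tested genes the median change was 0.14, against 0.01 over all loci tested, and 3 of the 9 (IRAK2, TIFA and RIPK2) had an unadjusted limma p under 0.05, as did 3.96% of all loci.

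Within the IRAK family the increase of IRAK2 shifted the balance of transcripts. IRAK2 made up 26.4% of the summed IRAK1, IRAK2 and IRAK4 FPKM in siEZH1 TNF against 4.29% in siEZH1 PBS. The share was 23.7% in siUXT TNF against 3.85% in siUXT PBS, and 27.5% in NC TNF against 4.05% in NC PBS. In every transfection IRAK1 remained the most abundant of the 3, at 67.8% to 71.6% of the sum under TNF and 86.5% to 92.5% under PBS. IRAK2 and IRAK1 were both lower in siEZH1 than in NC, and the ratio of IRAK2 to IRAK1 was 38.9% in siEZH1 TNF and 40.0% in NC TNF. Relative to TRAF6, their shared partner, IRAK2 stood at 4.95, 8.1 and 10.4 times the TRAF6 level in siEZH1 TNF, siUXT TNF and NC TNF, against 0.494, 1.45 and 0.954 times in siEZH1 PBS, siUXT PBS and NC PBS. TIFA was at 21.4, 23.7 and 23.8 times TRAF6 in the same TNF libraries and at 8.16, 6.5 and 7.86 times in the PBS libraries. TRAF6 itself was low, at 2.5, 1.83 and 1.7 FPKM in siEZH1 TNF, siUXT TNF and NC TNF. Under PBS it was at 2.63, 1.61 and 1.95 FPKM in siEZH1, siUXT and NC. These ratios thus vary with TRAF6 as well as with IRAK2 and TIFA.

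**Figure D3:**
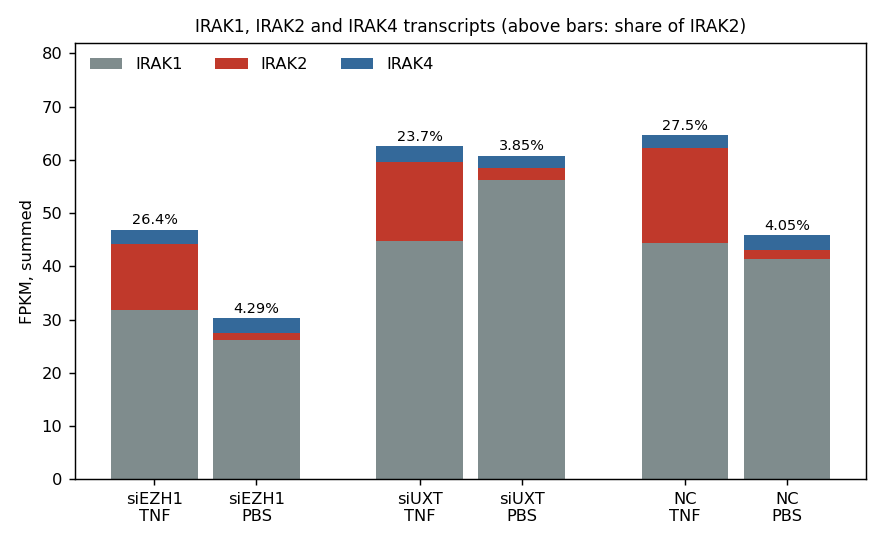
Summed FPKM of IRAK1, IRAK2 and IRAK4 (y axis, from 0) in each library, with the share of IRAK2 printed above each bar. The IRAK2 share lies between 23.7% and 27.5% in the 3 TNF libraries and between 3.85% and 4.29% in the 3 PBS libraries.

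The region before the start of IRAK2 and TIFA, which were the called members, is shown because NF-kB sites near the start are a textbook feature of TNF-induced genes. Sequences are from RefSeq, build GRCh38.p14, as the 250 bases before the gene's start in the direction of the gene (IRAK2 at chr3:10164669-10164918, plus strand; TIFA at chr4:112285905-112286154, minus strand). Below them are 60 bases around the match in TICAM1 (chr19:4831798-4831857, minus strand) and BIRC3 (chr11:102317324-102317383, plus strand), the called genes of the pathway lists described next. NFKBIA (chr14:35404796-35404855, minus strand), a long-known NF-kB target, is the last. Capitals mark a match to the NF-kB consensus on either strand, and for BIRC3, which has 2 matches, the one nearer the start is shown.
IRAK2: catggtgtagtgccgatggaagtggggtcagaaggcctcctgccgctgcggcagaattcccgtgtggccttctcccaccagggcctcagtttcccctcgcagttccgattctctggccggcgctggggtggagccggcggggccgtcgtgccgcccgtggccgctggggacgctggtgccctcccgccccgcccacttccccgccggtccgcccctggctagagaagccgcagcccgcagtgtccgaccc
TIFA: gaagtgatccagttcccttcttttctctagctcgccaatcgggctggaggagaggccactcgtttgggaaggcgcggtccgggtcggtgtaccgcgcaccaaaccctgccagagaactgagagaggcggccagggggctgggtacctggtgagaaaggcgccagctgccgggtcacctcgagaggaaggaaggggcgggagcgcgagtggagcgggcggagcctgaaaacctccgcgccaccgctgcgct
TICAM1: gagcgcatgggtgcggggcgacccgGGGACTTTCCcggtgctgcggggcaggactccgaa
BIRC3: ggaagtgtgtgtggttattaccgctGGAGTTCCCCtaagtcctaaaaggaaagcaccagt
NFKBIA: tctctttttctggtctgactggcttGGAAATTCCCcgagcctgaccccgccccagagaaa

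The windows of IRAK2 and TIFA held no match to the NF-kB consensus, searched on both strands. The letters searched were GGGRNNYYCC, with R for A or G, Y for C or T and N for any base. ICAM1, which also rose under TNF (log2 change 3.73, limma, Benjamini-Hochberg adjusted p = 0.002), held no match either, while TNFAIP3 and CXCL1 held matches. Of the 10 genes, 9 had a window in the table, and IRAK1 and TOLLIP, neither of them called, held a match. The consensus was in 12.2% of the windows of tested loci, counted window by window. Of the 48 loci called higher under TNF, 41 had a window, and 23 of these held a match in any of their windows. A locus can have several windows, so this count and the share of single windows cannot be compared directly. The match in TICAM1 began 120 bases before the start and that in NFKBIA 81 bases before it. A window without a match says only that these letters are not in those 250 bases.

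Across 4 lists of other pathway genes, 2 of 36 tested loci were called higher under TNF and 0 lower. These lists were also chosen with earlier results of these data known. Among Toll-like receptors and their adaptors, TICAM1, the adaptor of TLR3, rose with a log2 change of 1.28 (limma, Benjamini-Hochberg adjusted p = 0.047). It was at 18.3, 21.6 and 26.6 FPKM in siEZH1 TNF, siUXT TNF and NC TNF, against 6.2, 10.4 and 9.24 in siEZH1 PBS, siUXT PBS and NC PBS, and its call was lost in 4 of the alternative settings. The other 6 of the 7 tested loci on that list were not called; TLR2, TLR4, TLR8 and CD14 were listed at 0, and the list's median change was 0.08. TICAM2 had a change of 0.57 that came from the siUXT pair (2.15, against -0.18 in siEZH1 and -0.26 in NC), and its locus also holds TMED7. TLR3 had a change of 0.30 and UNC93B1, a trafficking chaperone of Toll-like receptors, of -0.11.

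On the list of the ALPK1-TIFA and NOD-RIPK2 arms, BIRC3, a ubiquitin ligase that acts with RIPK2, rose with a log2 change of 4.85 (limma, Benjamini-Hochberg adjusted p = 3.1e-04). It was at 36.7, 45.5 and 32.6 FPKM in siEZH1 TNF, siUXT TNF and NC TNF, against 0.432, 0.204 and 0.438 in siEZH1 PBS, siUXT PBS and NC PBS. The other 11 of 12 tested loci were not called and the list's median was 0.27. Those with the largest changes were BIRC2 at 1.82, NOD2, a sensor upstream of RIPK2, at 0.76, and TRAF2 at 0.40. NOD2 was higher in all 3 pairs, at 9.37, 8.72 and 7.7 FPKM under TNF in siEZH1, siUXT and NC against 4.25, 5.37 and 4.39 under PBS. ALPK1, upstream of TIFA, was at 2.28, 2.58 and 2.37 FPKM under TNF and at 1.92, 1.99 and 1.99 FPKM under PBS in the same order.

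In the relay from the MYD88 complex to TAK1, 0 of 14 tested loci were called and the median was 0.03. TRAF3, which shares its locus with AX746522, had a change of 1.13 (limma, Benjamini-Hochberg adjusted p = 0.11) and CYLD, a deubiquitinase that trims NF-kB activating chains, of 0.89 (limma, Benjamini-Hochberg adjusted p = 0.20). TRAF6, the shared target of IRAK1, IRAK2 and TIFA, lay between 1.61 and 2.63 FPKM, and IRAK3, the inhibitory IRAK, was listed at 0 in all 6 libraries. UBE2N, the ubiquitin-conjugating enzyme that works with TRAF6, had a change of 0.14 and TRAF3IP2 of -0.30. Of 20 IL-1 family ligands and receptors only IL18, IL18BP and IL1R1 were tested; 0 of 3 were called, with changes of 0.06, 0.15 and -0.04. IL1R1, the signalling IL-1 receptor, was at 1.77, 2.99 and 2.57 FPKM in siEZH1 TNF, siUXT TNF and NC TNF, against 2.01, 2.43 and 3.19 in siEZH1 PBS, siUXT PBS and NC PBS. Leaving out siUXT PBS raised the called loci on the 4 lists to 7, against a background of 2.47% of loci called higher in that fit.

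**Figure D4:**
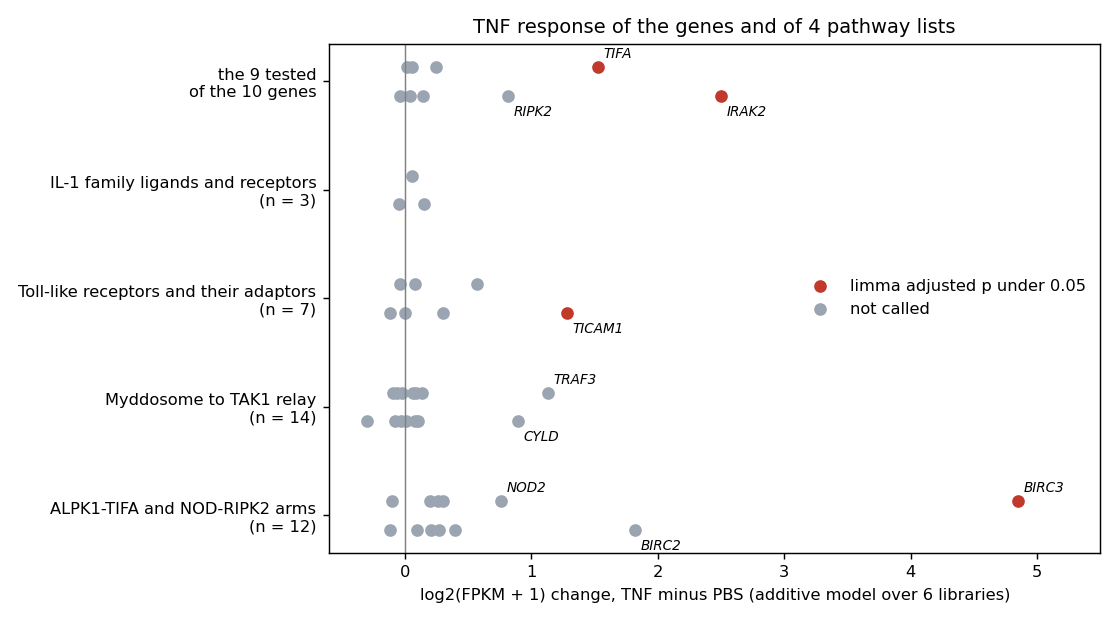
Log2(FPKM + 1) change under TNF from the additive model over 6 libraries (x axis) for the 9 tested genes and for 4 pathway lists, 1 point per locus, with loci called by limma in red. IRAK2, TIFA, TICAM1 and BIRC3 are the called points, and most others lie within 0.5 of 0.

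The profiles most like that of IRAK2 over the 6 libraries, by Euclidean distance of centred log2(FPKM + 1), belonged to PDGFB (distance 0.25), CSF1 (0.36), EFNA1 (0.38; its locus also holds AK308965), JUNB (0.52) and IRF1 (0.59). PDGFB, a growth factor gene, was at 30.7, 42.2 and 50.2 FPKM in siEZH1 TNF, siUXT TNF and NC TNF, against 4.32, 7.69 and 6.95 in siEZH1 PBS, siUXT PBS and NC PBS, the same order of libraries within each treatment as for IRAK2. Nearest to TIFA were IFNGR1 (0.47), IFIH1 (0.51), SLC16A9 (0.66), NFE2L3 (0.67) and BIRC2 (0.68). IFNGR1, an interferon-gamma receptor chain, was at 46.4, 42.9 and 34.9 FPKM in siEZH1 TNF, siUXT TNF and NC TNF, against 19.3, 8.45 and 19.1 in siEZH1 PBS, siUXT PBS and NC PBS. These genes were picked for their likeness, so a shared order of libraries is part of the choice.

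After siEZH1, none of the 9 tested genes passed the test against NC over all 6 libraries, but several lay on the same side under both treatments. The fit did not call EZH1, the targeted gene, either, with a log2 change of -0.30 (limma, Benjamini-Hochberg adjusted p = 0.64). A gene without a call may thus still have changed. IRAK1 had 31.8 FPKM in siEZH1 TNF against 44.4 in NC TNF, and 26.2 in siEZH1 PBS against 41.3 in NC PBS. SIGIRR was at 15.7 against 25.7 FPKM and at 13.5 against 18.3 in the same pairs. TOLLIP was at 6.72 in siEZH1 TNF against 10.2 in NC TNF and at 7.03 in siEZH1 PBS against 9.06 in NC PBS. Both siEZH1 values lay below both NC values for these 3 of 9 genes and for 28.4% of loci. They lay above both NC values for PELI1 and IRAK4, 2 of 9 genes, and for 31.1% of loci, so neither count stands out from the background. The ratio of IRAK2 to its NC level was 0.698 under TNF and 0.699 under PBS.

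PELI1 and TIFA were on the other side. PELI1 was at 3.74 FPKM in siEZH1 TNF against 1.94 in NC TNF and at 3.42 in siEZH1 PBS against 2.2 in NC PBS. It was the only tested member at least 1.5-fold apart the same way under both treatments, where 1.38% of loci were that much higher and 3.96% lower. TIFA was 1.32 times its NC level under TNF and 1.4 times under PBS, and RIPK2 1.44 and 1.09 times. MYD88 and IRAK4 lay between 0.996 and 1.1 times NC. In total 4 of 9 genes were higher and 4 lower under both treatments, against backgrounds of 40.7% and 37.7% of loci, a share close to the background.

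The log2 changes for siEZH1 over both treatments were -0.55 for IRAK1, -0.55 for SIGIRR, -0.43 for TOLLIP, -0.40 for IRAK2, 0.43 for TIFA and 0.58 for PELI1 (limma, Benjamini-Hochberg adjusted p from 0.60 to 0.61). The background of calls was 0.0% of loci higher and 0.0169% lower, and 3 of 9 genes (IRAK1, SIGIRR and PELI1) had an unadjusted limma p under 0.05, as did 8.21% of all loci. Without siUXT PBS, limma called TIFA and PELI1 higher and IRAK1, IRAK2, TOLLIP and SIGIRR lower (Benjamini-Hochberg adjusted p from 0.0096 to 0.048), but 11.8% of loci were called higher and 14.7% lower in that fit, whose spread rests on the NC and siEZH1 pairs alone. The TNF responses of siEZH1 and NC were close: the difference of the log2 change was -0.17 for IRAK2 and -0.07 for TIFA, within the range from -0.29 to 0.34 that held the middle of all loci (10th to 90th percentile), while that of RIPK2 was 0.37. These differences have no test at 1 library per condition.

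After siUXT, none of the 9 tested genes was called. The fit did not call UXT, the targeted gene, either, with a log2 change of -1.19 (limma, Benjamini-Hochberg adjusted p = 0.69). A missing call is therefore not evidence of no change. The difference from NC had opposite directions under TNF and PBS for 6 of 9 genes and for 59.7% of loci, a share close to the background. TIFA was at 1.07 times its NC level under TNF and 0.685 times under PBS, and RIPK2 at 1.06 and 0.515 times. MYD88 was at 0.682 times NC under TNF and 1.18 times under PBS, and IRAK2 at 0.834 and 1.26 times. IRAK1 was at 1.01 times NC under TNF and at 1.36 times under PBS, where its 56.2 FPKM was the highest IRAK1 value of the 6 libraries. TOLLIP and SIGIRR were lower under both treatments, at 0.721 and 0.698 times NC under TNF and 0.966 and 0.927 times under PBS; this was so for 2 of 9 genes and for 17.1% of loci.

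In limma's additive fit the siUXT changes ran from -0.37 for RIPK2 to 0.22 for IRAK1 (Benjamini-Hochberg adjusted p from 0.91 to 1.0), with 0 of 9 genes at an unadjusted p under 0.05. Over all loci 0.0253% were called higher and 0.0169% lower. RIPK2, at 0.515 times NC, was the only tested member at least 1.5-fold lower in siUXT PBS than in NC PBS. A drop of at least 1.5-fold was common in that library, at 19.8% of loci. The share of loci as low as RIPK2 was not counted. Without siUXT TNF, so that siUXT PBS alone stood for siUXT, limma called IRAK1 higher and TIFA and RIPK2 lower, in a fit that called 12.0% of loci higher and 18.4% lower. Of the 36 pathway list loci, limma called 0 for siEZH1 and 0 for siUXT in either direction, with 3 and 0 of the 36 at an unadjusted p under 0.05. Over all loci that share was 8.21% for siEZH1 and 3.65% for siUXT, so the list counts are close to or under the background. The siEZH1 and siUXT comparisons share the NC libraries, so their values are given side by side without a test of their likeness.

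**Figure D5:**
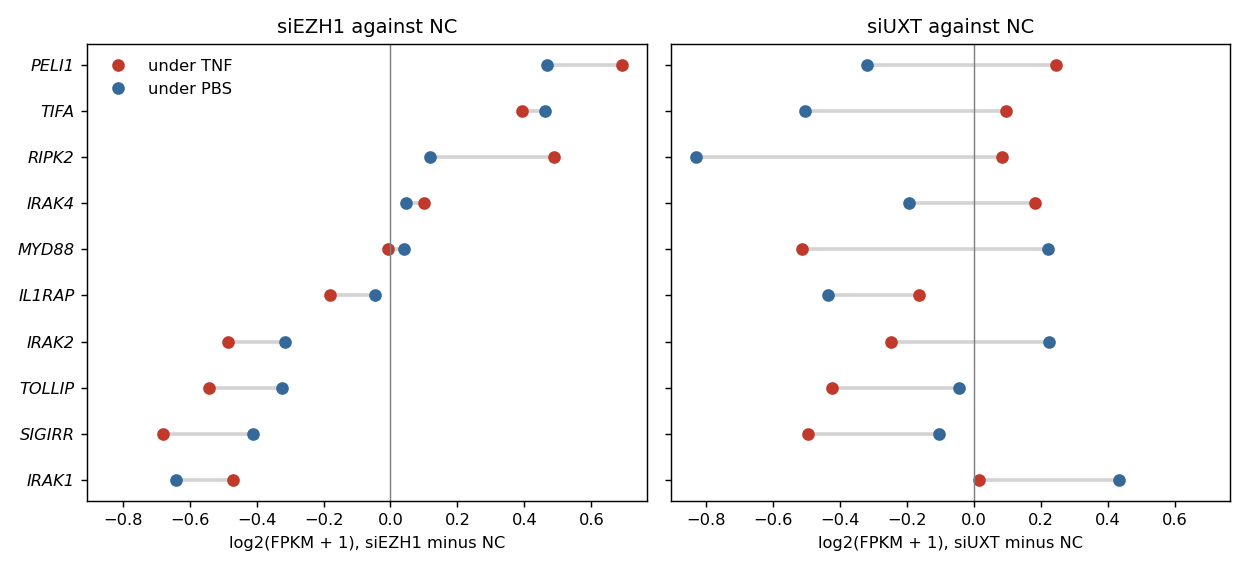
Difference of log2(FPKM + 1) from the NC library of the same treatment (x axis) for siEZH1 on the left and siUXT on the right, with TNF in red, PBS in blue and a grey line joining the 2 values of a gene. The 2 siEZH1 values of a gene lie close together for most genes, from -0.68 to 0.69, while for siUXT the PBS and TNF values lie on opposite sides of 0 for 6 of the 10 genes.

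The difference of the TNF response between siUXT and NC was 0.60 for TIFA, 0.91 for RIPK2, 0.56 for PELI1, -0.47 for IRAK2 and -0.74 for MYD88 on the log2 scale. The middle of all loci in this difference (10th to 90th percentile) ran from -0.61 to 1.01, which holds these values except that of MYD88. MYD88 was at 11.4 FPKM in siUXT TNF, the lowest of its 6 libraries. None of these differences could be tested with 1 library per condition.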

How the data were processed

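RNA of 6 libraries (siEZH1, siUXT and NC, each with TNF or PBS) was poly(A)-selected, per the labels' protocols. The authors deposited FPKM values per gene symbol, and the submitters' processing notes name FastQC, cutadapt, TopHat2, Bowtie and the hg19 build without saying which step each served. No read counts were used, so the absolute read depth is unknown and no counting interval is given. Depth relative to NC PBS was estimated roughly, from the most frequent ratio among values under 0.4 FPKM. It was 0.72 in NC TNF and 0.72 in siEZH1 TNF, against 1.02 in siEZH1 PBS, 0.95 in siUXT PBS and 0.96 in siUXT TNF. FPKM sums ran from 617998 to 649481.

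Symbols with identical values were merged into 1 locus, and loci averaging 1 FPKM or more were tested. An additive model of transfection and treatment was fitted to log2(FPKM + 1) with limma 3.58.1 in R 4.3.3 (eBayes with trend). Benjamini-Hochberg adjustment was over 11845 loci, with a threshold of 0.05. A check on simulated data covered only the TNF comparison, with independent noise and no shift of a whole library. It therefore says nothing of the siEZH1 and siUXT comparisons. The additive model takes treatments or transfections as replicates, so an interaction cannot be tested. With 1 library per condition, the p-values rest on departures from the additive model, with a spread moderated over all loci. They do not measure variation between replicates of a condition.

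The 10 genes, the pathway lists and the tests were chosen with earlier results of these data known. Genes outside the 10 were named when called, among the 4 largest changes of their list, or among the 5 nearest profiles; ALPK1, TRAF6, IRAK3 and IL1R1 were named for their place in the pathway, after their values were seen. Alternatives were another pseudocount (0.1), no filter, size factors, eBayes without trend, unmerged symbols and leaving out libraries or pairs. Promoter windows are from RefSeq (GRCh38.p14), a build other than hg19, and were matched by symbol.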

Additional observations from a re-analysis of the deposited data

How the results depend on the processing

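With limma, IRAK2 was called higher under TNF in every setting run. TNF members called higher fell to 1, against 2, with no filter and with size factors, where TIFA was lost. Called loci of the pathway lists were 1, against 2, with eBayes without trend, size factors, no filter or a pseudocount of 0.1 (TICAM1 was lost). They were 7 without siUXT PBS, and 6 without siUXT TNF or the siUXT pair. Over all loci, 2.47%, 2.48% and 2.43% were called higher without siUXT PBS, siUXT TNF and the siUXT pair. For siEZH1, members called higher were 2 without siUXT PBS, siUXT TNF or the siUXT pair, against 0. In these fits 11.8%, 11.3% and 11.6% of all loci were called higher. Members called lower were 4, 3 and 3 in the same order, against 0. Over all loci, 14.7%, 14.8% and 14.6% were called lower, so the calls were not particular to the members. For siUXT, the calls without siUXT TNF, given above with their background, rest on siUXT PBS alone. The log2 changes of the members named there were 0.48 for IRAK1, -0.52 for TIFA and -0.74 for RIPK2. The cause of these differences between settings was not tested.

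Changes that reversed were not called in either setting. Under TNF they were IRAK1 (-0.024 without the NC pair, -0.11 without the siEZH1 pair), MYD88 (-0.093 and -0.069 in the same order), and, without siUXT PBS, siUXT TNF or their pair, IRAK4 (-0.060), PELI1 (-0.011) and TOLLIP (0.052). For siUXT they were IRAK1 (-0.029), IRAK4 (0.17), TIFA (0.11) and PELI1 (0.19) without siUXT PBS, IRAK2 (0.18) and MYD88 (0.21) without siUXT TNF, and IRAK2 (0.029) with a pseudocount of 0.1. Of 234 recomputed member changes, 193 kept direction and call. With a pseudocount of 0.1 the log2 change of IRAK2 was 3.16 in siEZH1, 2.61 in siUXT and 3.19 in NC.

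The TNF comparison is paired by transfection in the additive model, and the labels give no replicate numbers for a further block. Loci called higher under TNF ranged from 23 to 294 over the settings. Fits that leave out a siUXT library take their spread from the siEZH1 and NC pairs alone. The absolute read depth is unknown, and the relative depth was estimated as lower in NC TNF and siEZH1 TNF. This limits what can be said of IL1RAP, IRAK4 and PELI1.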
